A study of Rattus norvegicus with 15 samples.

Results

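The interferon-stimulated genes of the rat retina are described here across 5 groups of retinas. The 40 members were named from textbook knowledge of the type I and type II interferon response, and a member was kept where its mean value over the 15 libraries was at least 3.32 on the log2 scale used below. All 40 were listed and passed, of 20375 genes listed and 15424 tested. The members were named with earlier results of these data known, so their counts are descriptions, read beside the share of all tested genes that passed the same threshold.

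RNA sequencing was performed on whole retinas of wild-type Sprague-Dawley rats, labelled post-natal week 12 and post-transplant day 31, with 3 libraries in each of 5 groups. The NT group was healthy. The other 4 groups received systemic sodium iodate at 40 mg/kg, which damages the retinal pigment epithelium and then the photoreceptors. According to the study's methods, this was done some days after the intravitreal injection, which held vehicle (Sham), mesenchymal stem cells from human Wharton's jelly (MSC), the same cells carrying a lentiviral erythropoietin construct (MSCEPO), or cells labelled DPSC, whose source the labels do not give. Rats with xenografts also received dexamethasone at 2 mg/kg before surgery and cyclosporin at 10 mg/kg/day after it. In comparisons of MSC or MSCEPO with NT or Sham, the cells and the immunosuppressants therefore cannot be told apart. The labels do not say whether the DPSC rats received these drugs.

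Interferons bind receptors that activate JAK kinases, which phosphorylate STAT proteins. Type I and type III interferons act through a complex that holds STAT2 and IRF9 and binds the interferon-stimulated response element (ISRE), whereas type II interferon acts through STAT dimers that bind the gamma-activated sequence (GAS). The induced genes encode sensors of viral RNA, effectors that block viral entry, replication or translation, and the regulators that amplify or end the response. In the retina, microglia, Müller glia and vascular cells are among the cells that can respond.

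The deposited values were regularized log (rlog) values on a log2 scale, which the authors corrected for library size and shrank toward the mean of each gene. A difference of 1 is a 2-fold difference on that scale, and the shrinkage makes differences of low genes smaller. Read counts were not used. The study's methods give an average number of reads but none per library, so depth could not be compared between libraries. The MSC and MSCEPO cells were human and the reads were assigned to rat transcripts, so reads from donor cells that match a rat gene cannot be told apart from those of the host. Upregulated here means an adjusted p under 0.05 in limma, with the Benjamini-Hochberg method over 15424 genes, together with a fold over 2. Fold changes carry the standard error of the limma fit, with 3 libraries a group. All 9 rod photoreceptor markers and all 7 Müller glia markers passed the floor of 3.32, as retinal tissue would have. The libraries MSC replicate 1 and MSCEPO replicate 3 stood apart from their groups over all genes, with mean distances to the rest of the group of 72.4 and 90.6 rlog units, against 51 to 68.6 in the other libraries of the transplanted groups and 29.6 to 34.9 in NT and Sham. Counts without both are therefore given below. Nothing in the labels says more of the replicates than that they are separate samples, so the p-values measure the spread between these samples. In whole retina, more cells of a type and more RNA per cell cannot be told apart.

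The members were lowest in NT and highest in MSC. Group means followed the order NT, Sham, DPSC, MSCEPO, MSC in 38 of 40 members, and the exceptions were Cmpk2 and Oasl. The mean member level, taken relative to the NT mean of each gene, was 0.50, 0.81 and 0.88 in the Sham libraries, 0.95, 1.33 and 0.55 in DPSC, 1.59, 1.49 and 0.96 in MSCEPO and 2.05, 2.08 and 1.04 in MSC, on the log2 scale. Every treated library lay above the NT libraries, which spanned -0.23 to 0.15. The groups of treated retinas overlapped: the lowest MSC library lay below 2 MSCEPO libraries and below 1 DPSC library.

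**Figure D1:**
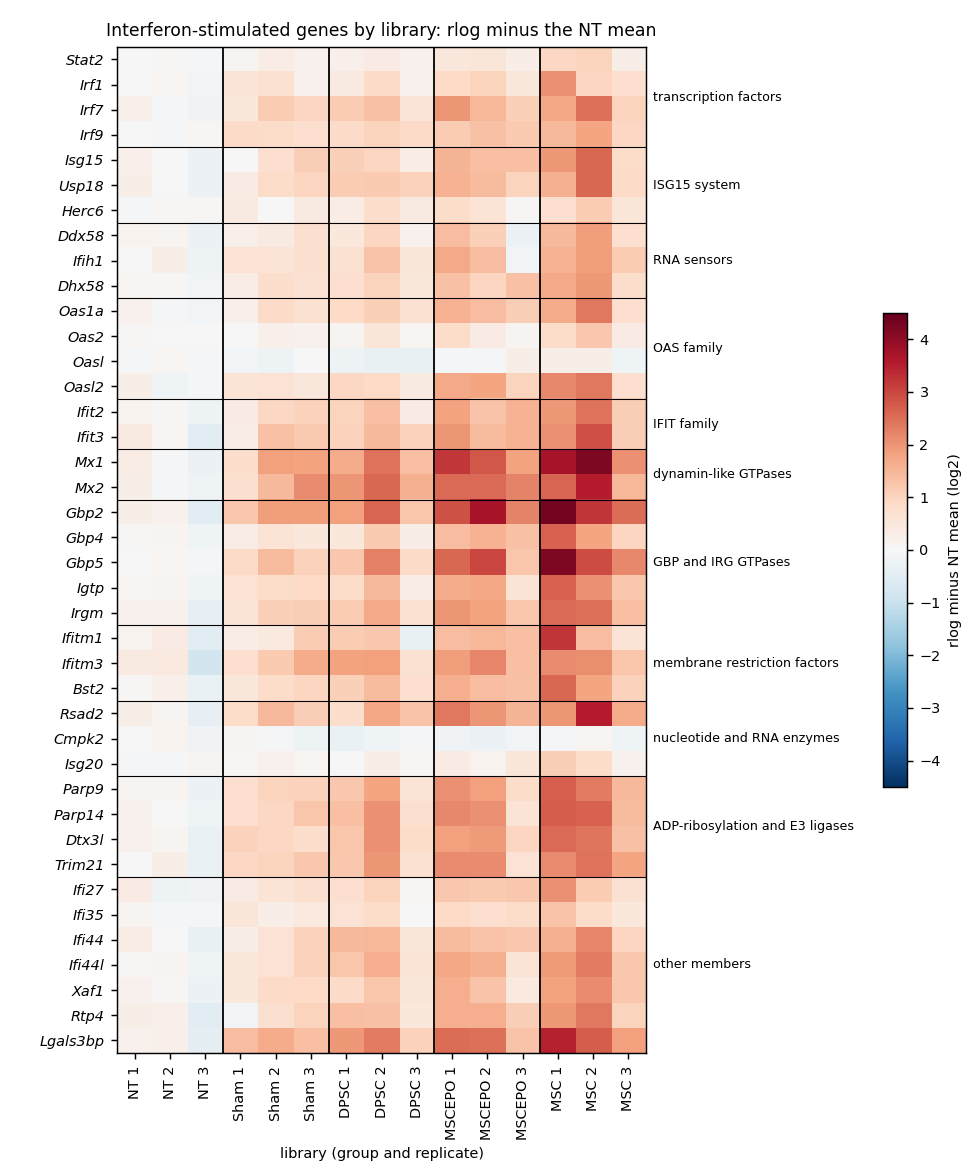
Heat map of the 40 members (vertical axis, grouped by role) in the 15 libraries (horizontal axis), where color is the rlog value minus the NT mean of that gene on the log2 scale. Red deepens from Sham to MSC in nearly all rows, while Cmpk2 and Oasl stay near 0, and MSC replicate 3 is the palest library of its group.

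Against NT, 33 of 40 members were upregulated in MSC, where 5.71% of all tested genes were. In MSCEPO 29 of 40 were upregulated, beside 2.33% of all genes, and in DPSC 2 of 40, beside 0.525%. In Sham 0 of 40 members were upregulated by limma, beside 0.266% of all genes, with 18 of 40 at an unadjusted p under 0.05 (6.29% of all genes). At that unadjusted p, 28 of 40 members were higher in DPSC (8.91% of all genes), 35 in MSCEPO (13.6%) and 38 in MSC (17.9%). No member was downregulated in any of these comparisons by limma, nor lower at an unadjusted p under 0.05. Of all tested genes, 0.985% were downregulated in MSC, 1.24% in MSCEPO, 0.259% in DPSC and 0.0259% in Sham, and 12.9%, 13.4%, 7.9% and 6.06% were lower at that unadjusted p. The median log2 fold change of the members against NT was 0.72 in Sham, 0.91 in DPSC, 1.41 in MSCEPO and 1.77 in MSC, with a median of 0 over all tested genes in each.

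The MSC count kept its size without any single library, at 28 to 35 of 40 beside 3.35% to 7.16% of all genes, and was 30 without both libraries that stood apart (4.34%). The MSCEPO count depended on single libraries. It was 8 without NT replicate 3 (1.1% of all genes), 16 without NT replicate 2 (1.59%), 13 without MSCEPO replicate 2 (1.33%) and 17 without MSCEPO replicate 1 (1.47%), against 31 without MSCEPO replicate 3 (4.23%) and 32 without both libraries that stood apart (5.28%). The DPSC count was 0 without any 1 of the NT libraries or of DPSC replicates 1 and 2, 6 without DPSC replicate 3 (0.726% of all genes), 10 without MSCEPO replicate 3 (0.901%) and 14 without both libraries that stood apart (1.39%). Under every alternative tried, 27 of the 33 members upregulated in MSC stayed so, and 8 of the 29 in MSCEPO, namely Dhx58, Gbp2, Ifit2, Irf9, Irgm, Lgals3bp, Mx1 and Mx2.

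Promoters are shown because the members moved together and the interferon pathway is known to act through short DNA elements. The 250 bases before the start were found for 31 of 40 members in the RefSeq promoter table (GRCr8 build, a later build than the Rnor_6.0 of the expression values). They were searched on both strands for the ISRE core GAAANNGAAA and the GAS core TTCNNNGAA. The ISRE core was present in 21 of 31 member promoters (67.7%) and in 1140 of 33469 promoters of the same length (3.41%). The GAS core was present in 9 of 31 (29%) and in 2566 of 33469 (7.67%). Both cores occurred in 7 members and overlapped in 1 of them, Bst2. Examples with the stretch around the element nearest to the start follow, 5′ to 3′ on the strand of the gene, with the ISRE core in capitals, or the GAS core where the window holds no ISRE core (Irf1 and Irf9).
Irf7 (chr1:205800058-205800117, minus strand): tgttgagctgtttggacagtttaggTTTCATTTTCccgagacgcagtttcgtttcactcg
Ifih1 (chr3:67683993-67684052, minus strand): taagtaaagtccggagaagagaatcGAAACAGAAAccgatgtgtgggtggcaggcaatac
Oas1a (chr12:41330406-41330465, plus strand): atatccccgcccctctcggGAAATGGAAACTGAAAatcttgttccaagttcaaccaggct
Ifit3 (chr1:241527257-241527316, plus strand): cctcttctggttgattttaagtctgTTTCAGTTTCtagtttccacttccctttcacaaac
Rsad2 (chr6:48788233-48788292, minus strand): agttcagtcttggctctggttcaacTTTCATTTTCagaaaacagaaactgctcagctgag
Gbp2 (chr2:234005667-234005726, plus strand): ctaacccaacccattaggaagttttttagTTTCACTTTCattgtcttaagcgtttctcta
Gbp5 (chr2:233910918-233910977, plus strand): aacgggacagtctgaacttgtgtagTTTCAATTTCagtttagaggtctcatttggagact
Irgm (chr10:33742579-33742638, minus strand): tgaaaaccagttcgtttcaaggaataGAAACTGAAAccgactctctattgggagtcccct
Bst2 (chr16:18255058-18255117, minus strand): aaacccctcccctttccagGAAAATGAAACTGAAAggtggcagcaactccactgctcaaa
Lgals3bp (chr10:104127864-104127923, minus strand): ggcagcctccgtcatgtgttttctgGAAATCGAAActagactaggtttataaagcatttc
Irf1 (chr10:38417768-38417827, plus strand): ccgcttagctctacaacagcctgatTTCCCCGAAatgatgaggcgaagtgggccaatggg
Irf9 (chr15:33065712-33065771, plus strand): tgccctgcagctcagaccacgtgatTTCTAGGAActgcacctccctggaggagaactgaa

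The core began 31 bases before the start in Gbp2, 35 in Oas1a, 44 in Ifit3 and 50 in Lgals3bp, whereas in Rsad2 it began 147 bases before it. In Oas1a and Bst2 a pair of ISRE cores overlapped. The 21 members with the ISRE core had a median log2 fold change of 1.81 in MSC against NT, and the 10 without it 1.06. In Sham the medians were 0.80 and 0.46, and in MSCEPO 1.49 and 0.80. For the GAS core, the 9 members with it had a median of 1.81 in MSC and the 22 without it 1.75. In Sham the GAS medians were 0.80 and 0.71, and in MSCEPO 1.37 and 1.46. The members were named as interferon targets, so their share with a core is not independent of that choice. Among the 10 without the ISRE core were Cmpk2 and Oasl, which passed in no comparison, and also Mx1, which was 10.1-fold higher in MSC. The letters are a description of these windows and do not show that a factor binds there.

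The transcription factors of the pathway include Stat2 and Irf9, which are parts of the complex that binds the ISRE, Irf7, which amplifies type I interferon production, and Irf1, an early factor induced by type II interferon. Irf9 (ENSRNOG00000019478) read 8.06, 7.99 and 8.15 in NT, 8.94, 8.91 and 8.84 in Sham, 8.92, 9.08 and 8.94 in DPSC, 9.23, 9.38 and 9.25 in MSCEPO and 9.54, 9.83 and 8.99 in MSC. The NT libraries were tightly grouped and every other library lay above them. Irf9 differed from NT in Sham (log2 fold change 0.83 ± 0.16, 1.78-fold, adjusted p = 0.0342) and in DPSC (log2 fold change 0.91 ± 0.16, 1.88-fold, adjusted p = 0.011), under 2-fold in each case, and it rose in MSCEPO (log2 fold change 1.22 ± 0.16, 2.33-fold, adjusted p = 0.000604) and MSC (log2 fold change 1.39 ± 0.16, 2.62-fold, adjusted p = 0.000437). It was the only member to pass the adjusted threshold in Sham (1 of 40, beside 0.558% of all genes). Irf7 (ENSRNOG00000017414) was at 6.72, 6.40 and 6.32 in NT, 6.96, 7.62 and 7.46 in Sham, 7.63, 7.80 and 7.07 in DPSC, 8.45, 7.97 and 7.56 in MSCEPO and 8.21, 8.97 and 7.49 in MSC. All treated libraries exceeded NT, and the highest level was that of MSC replicate 2. Irf7 rose in MSCEPO (log2 fold change 1.52 ± 0.34, 2.86-fold, adjusted p = 0.0137) and MSC (log2 fold change 1.74 ± 0.34, 3.34-fold, adjusted p = 0.00545).

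Irf1 (ENSRNOG00000008144) gave 8.47, 8.54 and 8.34 in NT, 9.03, 9.13 and 8.65 in Sham, 8.87, 9.31 and 8.65 in DPSC, 9.35, 9.44 and 8.95 in MSCEPO and 10.49, 9.40 and 9.20 in MSC. The value of MSC replicate 1 stood more than 1 unit above its group. Irf1 rose in MSC (log2 fold change 1.25 ± 0.29, 2.38-fold, adjusted p = 0.0113) and missed the threshold in MSCEPO (log2 fold change 0.79 ± 0.29, 1.73-fold, adjusted p = 0.0951). Stat2 (ENSRNOG00000031081) had rlog values of 10.06, 10.15 and 10.03 in NT, 10.21, 10.41 and 10.29 in Sham, 10.32, 10.46 and 10.27 in DPSC, 10.59, 10.64 and 10.38 in MSCEPO and 11.02, 11.08 and 10.36 in MSC. Its range was the narrowest of these 4 factors, and the difference in MSC stayed under 2-fold (log2 fold change 0.74 ± 0.16, 1.67-fold, adjusted p = 0.00766).

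The ISG15 system attaches the ubiquitin-like protein ISG15 to other proteins. Usp18 removes it and also restrains signaling at the type I receptor, while Herc6 is the ligase of rodents. Isg15 (ENSRNOG00000021802) read 5.75, 5.54 and 5.26 in NT, 5.53, 6.29 and 6.63 in Sham, 6.60, 6.49 and 5.85 in DPSC, 7.05, 6.88 and 6.86 in MSCEPO and 7.46, 8.09 and 6.34 in MSC. The first Sham library lay within the NT range, and the MSCEPO libraries were close to each other. Isg15 rose in MSCEPO (log2 fold change 1.41 ± 0.38, 2.65-fold, adjusted p = 0.0321) and MSC (log2 fold change 1.78 ± 0.38, 3.43-fold, adjusted p = 0.00831). Usp18 (ENSRNOG00000037198) was at 6.55, 6.28 and 6.01 in NT, 6.66, 7.09 and 7.24 in Sham, 7.41, 7.45 and 7.30 in DPSC, 7.83, 7.72 and 7.27 in MSCEPO and 7.88, 8.85 and 7.14 in MSC. No treated library overlapped NT. Usp18 rose in MSCEPO (log2 fold change 1.32 ± 0.33, 2.5-fold, adjusted p = 0.0225) and MSC (log2 fold change 1.67 ± 0.33, 3.19-fold, adjusted p = 0.00572), and Herc6 was 1.76-fold higher in MSC, under the fold required. Outside the members, the activating enzyme Uba7 (log2 fold change 1.93 ± 0.26, SE) and the conjugating enzyme Ube2l6 (1.24 ± 0.18) rose in MSC as well.

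The RNA sensors were Ddx58 (RIG-I), Ifih1 (MDA5) and Dhx58 (LGP2), which detect viral RNA in the cytosol. Ifih1 (ENSRNOG00000006227) gave 6.97, 7.25 and 6.78 in NT, 7.64, 7.63 and 7.73 in Sham, 7.67, 8.30 and 7.53 in DPSC, 8.69, 8.38 and 6.87 in MSCEPO and 8.55, 8.87 and 8.16 in MSC. Ddx58 (ENSRNOG00000006384) had rlog values of 6.40, 6.38 and 5.97 in NT, 6.47, 6.67 and 6.97 in Sham, 6.74, 7.23 and 6.43 in DPSC, 7.64, 7.31 and 5.98 in MSCEPO and 7.72, 8.12 and 6.99 in MSC. For both genes MSCEPO replicate 3 lay within the NT range, while the other MSCEPO libraries were near those of MSC. Ifih1 rose in MSC (log2 fold change 1.53 ± 0.38, 2.88-fold, adjusted p = 0.0161), as did Ddx58 (log2 fold change 1.35 ± 0.39, 2.56-fold, adjusted p = 0.0315). In MSCEPO neither passed, with log2 fold changes of 0.98 (95% interval 0.16 to 1.80) for Ifih1 and 0.72 (-0.12 to 1.57) for Ddx58. Dhx58, in contrast, did not drop in MSCEPO replicate 3 (7.90 against 7.88 and 7.55) and rose in MSCEPO (log2 fold change 1.21 ± 0.25, 2.31-fold, adjusted p = 0.00896) and MSC (log2 fold change 1.48 ± 0.25, 2.79-fold, adjusted p = 0.00271).

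The OAS enzymes make the second messenger that activates RNase L, and IFIT proteins bind viral RNA and limit its translation. Oas1a (ENSRNOG00000001369) read 5.54, 5.29 and 5.23 in NT, 5.58, 6.22 and 6.04 in Sham, 6.27, 6.44 and 6.03 in DPSC, 6.93, 6.76 and 6.48 in MSCEPO and 7.04, 7.74 and 6.10 in MSC. Ifit3 (ENSRNOG00000022839) was at 7.01, 6.68 and 6.10 in NT, 6.93, 7.91 and 7.79 in Sham, 7.62, 8.06 and 7.63 in DPSC, 8.57, 8.01 and 8.17 in MSCEPO and 8.66, 9.50 and 7.72 in MSC. In Oas1a the treated libraries all exceeded NT, whereas in Ifit3 the first Sham library lay within the NT range. Oas1a rose in MSCEPO (log2 fold change 1.37 ± 0.32, 2.58-fold, adjusted p = 0.0157) and MSC (log2 fold change 1.60 ± 0.32, 3.04-fold, adjusted p = 0.00571), and Ifit3 rose in MSCEPO (log2 fold change 1.65 ± 0.40, 3.14-fold, adjusted p = 0.0181) and MSC (log2 fold change 2.03 ± 0.40, 4.08-fold, adjusted p = 0.00534). Oasl2 and Ifit2 also rose in both groups, Oas2 was 1.74-fold higher in MSC, under the fold required, and Oasl did not pass in any comparison (log2 fold change in MSC 0.12, 95% interval -0.19 to 0.42). In DPSC the Oasl libraries lay below NT without overlap, at 7.24 to 7.36 against 7.54 to 7.66, with an adjusted p of 0.309 in limma. The OAS genes, like the Mx, GBP, IRG and IFITM genes below, have close relatives, and transcript estimates may be split between such copies with some error.

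Mx1 and Mx2 encode dynamin-like GTPases that trap viral nucleocapsids. Mx1 (ENSRNOG00000001959) gave 6.53, 6.10 and 5.93 in NT, 6.99, 8.02 and 7.99 in Sham, 7.85, 8.63 and 7.56 in DPSC, 9.37, 8.98 and 8.01 in MSCEPO and 9.91, 10.40 and 8.24 in MSC. Mx2 (ENSRNOG00000001963) had rlog values of 8.49, 8.18 and 8.06 in NT, 8.97, 9.70 and 10.36 in Sham, 10.24, 10.81 and 9.84 in DPSC, 10.80, 10.78 and 10.48 in MSCEPO and 10.87, 11.79 and 9.75 in MSC. Every treated library was above every NT library for both genes, and MSC replicate 3 was lower than the other MSC libraries by more than 1 unit. Mx1 rose in MSCEPO (log2 fold change 2.60 ± 0.52, 6.08-fold, adjusted p = 0.00734) and MSC (log2 fold change 3.34 ± 0.52, 10.1-fold, adjusted p = 0.00177). Mx2 rose in DPSC (log2 fold change 2.05 ± 0.44, 4.15-fold, adjusted p = 0.0294), MSCEPO (log2 fold change 2.44 ± 0.44, 5.43-fold, adjusted p = 0.00437) and MSC (log2 fold change 2.56 ± 0.44, 5.89-fold, adjusted p = 0.00299). In Sham, both were over 2-fold higher without passing the adjusted threshold, Mx1 at 2.79-fold and Mx2 at 2.70-fold (adjusted p = 0.242 and 0.178 in limma).

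The guanylate-binding proteins (Gbp2, Gbp4, Gbp5) attack vacuoles that hold microbes. Their genes and those of the immunity-related GTPases (Igtp, Irgm) respond strongly to type II interferon. All 5 rose in both MSCEPO and MSC. Gbp2 (ENSRNOG00000031743) read 8.08, 8.01 and 7.33 in NT, 9.04, 9.68 and 9.69 in Sham, 9.66, 10.44 and 9.07 in DPSC, 10.67, 11.51 and 10.04 in MSCEPO and 12.10, 11.04 and 10.32 in MSC. Gbp5 (ENSRNOG00000032240) was at 6.16, 6.24 and 6.07 in NT, 7.03, 7.58 and 7.21 in Sham, 7.37, 8.44 and 7.03 in DPSC, 8.73, 9.15 and 7.42 in MSCEPO and 10.36, 9.11 and 8.33 in MSC. Irgm (ENSRNOG00000031138) gave 6.90, 6.92 and 6.34 in NT, 7.32, 7.79 and 7.83 in Sham, 7.87, 8.42 and 7.40 in DPSC, 8.69, 8.54 and 7.96 in MSCEPO and 9.27, 9.19 and 8.09 in MSC. In each of the 3 genes all treated libraries lay above NT, and MSC replicate 1 was the highest of all 15. Gbp2 rose in MSCEPO (log2 fold change 2.93 ± 0.48, 7.63-fold, adjusted p = 0.00219) and MSC (log2 fold change 3.34 ± 0.48, 10.1-fold, adjusted p = 0.00124), and Gbp5 in MSCEPO (log2 fold change 2.28 ± 0.52, 4.85-fold, adjusted p = 0.014) and MSC (log2 fold change 3.11 ± 0.52, 8.64-fold, adjusted p = 0.00254). Irgm rose in MSCEPO (log2 fold change 1.68 ± 0.34, 3.2-fold, adjusted p = 0.00776) and MSC (log2 fold change 2.13 ± 0.34, 4.38-fold, adjusted p = 0.00196). In DPSC Gbp2 was 3.76-fold higher and narrowly missed (adjusted p = 0.0519 in limma).

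Restriction factors of the membrane act on viral entry and release: Ifitm1 and Ifitm3 block fusion, and Bst2 (tetherin) holds budding virus at the surface. Ifitm3 (ENSRNOG00000015078) had rlog values of 9.02, 9.04 and 7.77 in NT, 9.38, 9.78 and 10.29 in Sham, 10.41, 10.47 and 9.29 in DPSC, 10.48, 10.82 and 9.96 in MSCEPO and 10.73, 10.69 and 9.85 in MSC. Bst2 (ENSRNOG00000059900) read 6.51, 6.71 and 6.18 in NT, 6.97, 7.29 and 7.43 in Sham, 7.54, 7.88 and 7.22 in DPSC, 8.09, 7.86 and 7.78 in MSCEPO and 9.05, 8.25 and 7.52 in MSC. No treated library of either gene fell within the NT range. Ifitm3 had the same mean to 2 decimals in MSC and MSCEPO, and it rose in MSCEPO (log2 fold change 1.81 ± 0.42, 3.51-fold, adjusted p = 0.0149) and MSC (log2 fold change 1.81 ± 0.42, 3.52-fold, adjusted p = 0.0114). Bst2 rose in MSCEPO (log2 fold change 1.44 ± 0.31, 2.72-fold, adjusted p = 0.0105) and MSC (log2 fold change 1.80 ± 0.31, 3.49-fold, adjusted p = 0.00283). Ifitm1 passed in MSC only at the edge (3.35-fold, adjusted p = 0.0490 in limma), where replicate 1 read 9.60 and the others 7.80 and 7.03.

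Rsad2 (viperin) converts CTP into a chain terminator and lies next to Cmpk2, a nucleotide kinase, while Isg20 degrades RNA. Cmpk2 is given in full, and Oasl above in part, because their values stood out once seen. Rsad2 (ENSRNOG00000007539) was at 7.46, 7.30 and 6.82 in NT, 8.03, 8.66 and 8.29 in Sham, 7.99, 8.94 and 8.49 in DPSC, 9.56, 9.18 and 8.72 in MSCEPO and 9.17, 10.72 and 8.86 in MSC. All treated libraries exceeded NT, and MSC replicate 2 exceeded all others by more than 1 unit. Rsad2 rose in MSCEPO (log2 fold change 1.96 ± 0.42, 3.89-fold, adjusted p = 0.0101) and MSC (log2 fold change 2.39 ± 0.42, 5.25-fold, adjusted p = 0.00299). Cmpk2 (ENSRNOG00000007690) gave 11.00, 11.13 and 10.83 in NT, 11.09, 10.90 and 10.74 in Sham, 10.68, 10.80 and 10.89 in DPSC, 10.83, 10.70 and 10.86 in MSCEPO and 10.89, 11.06 and 10.77 in MSC. The Cmpk2 libraries of all groups overlapped, and no comparison passed (log2 fold change in MSC -0.08, 95% interval -0.33 to 0.17). Isg20 was 1.63-fold higher in MSC, under the fold required.

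Parp9 and Parp14 are ADP-ribosyltransferases, Dtx3l is the E3 ligase partner of Parp9, and Trim21 is an E3 ligase that recognizes antibody-coated virus. All 4 rose in MSCEPO and in MSC, within a narrow range of 1.57 to 1.64 in MSCEPO and 2.09 to 2.27 in MSC on the log2 scale. Parp14 (ENSRNOG00000023334) had rlog values of 7.96, 7.75 and 7.54 in NT, 8.52, 8.67 and 9.01 in Sham, 9.12, 9.79 and 8.47 in DPSC, 9.90, 9.82 and 8.37 in MSCEPO and 10.49, 10.39 and 9.17 in MSC. The treated libraries all lay above NT, and MSCEPO replicate 3 was lower than each Sham library. Parp14 rose in MSCEPO (log2 fold change 1.61 ± 0.44, 3.06-fold, adjusted p = 0.0334) and MSC (log2 fold change 2.27 ± 0.44, 4.81-fold, adjusted p = 0.00521). The whole class was lower in MSCEPO replicate 3, by 1.24 on average relative to the other MSCEPO libraries.

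Of the remaining 7 members, all but Ifi35 rose in MSCEPO and in MSC. Lgals3bp (ENSRNOG00000003217) read 8.56, 8.59 and 7.97 in NT, 9.77, 10.05 and 9.73 in Sham, 10.32, 10.71 and 9.40 in DPSC, 10.90, 10.84 and 9.67 in MSCEPO and 11.82, 11.09 and 10.20 in MSC. Lgals3bp, a secreted glycoprotein that binds galectin-3, had no treated library within the NT range. It rose in DPSC (log2 fold change 1.77 ± 0.43, 3.41-fold, adjusted p = 0.0485), MSCEPO (log2 fold change 2.10 ± 0.43, 4.27-fold, adjusted p = 0.00888) and MSC (log2 fold change 2.66 ± 0.43, 6.33-fold, adjusted p = 0.00222). Ifi27 (ENSRNOG00000009263) was at 9.15, 8.55 and 8.61 in NT, 9.13, 9.38 and 9.48 in Sham, 9.53, 9.76 and 8.84 in DPSC, 10.00, 9.94 and 9.98 in MSCEPO and 10.83, 9.92 and 9.46 in MSC. Ifi27, a small mitochondrial protein, was nearly equal in the MSCEPO libraries, and the Sham and DPSC ranges reached into that of NT. It rose in MSCEPO (log2 fold change 1.20 ± 0.31, 2.3-fold, adjusted p = 0.0243) and MSC (log2 fold change 1.30 ± 0.31, 2.46-fold, adjusted p = 0.0129). Ifi44, Ifi44l, Xaf1, which binds an inhibitor of apoptosis, and Rtp4 rose in MSC by 1.58 to 1.82, and Ifi35 was 1.83-fold higher, under the fold required.

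**Figure D2:**
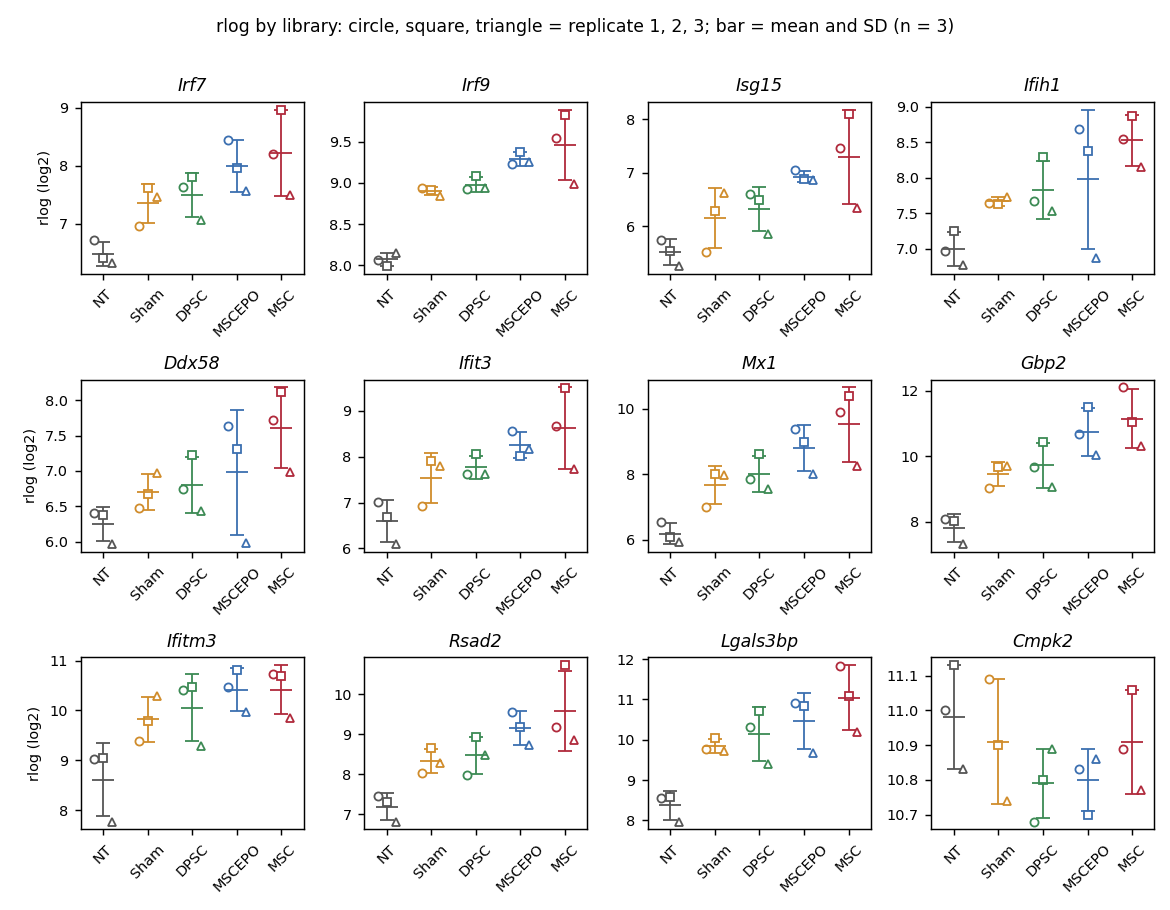
rlog values (vertical axes, log2, scaled per gene) of 12 members in the 5 groups, each symbol a library and each bar the mean and SD of 3. The levels step up from NT to MSC in all but Cmpk2, and MSCEPO replicate 3 (triangle) sits at the NT level for Ifih1 and Ddx58.

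The comparison of Sham with NT asks what sodium iodate and the vehicle injection did together, without transplanted cells. NT received neither, so the injection and the sodium iodate cannot be told apart here. The 29 members whose Sham libraries all lay above all NT libraries made up 72.5% of the members, where 16.6% of all tested genes had that pattern. By the mean, 8 members were over 2-fold higher in Sham (1.37% of all genes), and the highest were Gbp2 (3.16-fold, 95% interval of the log2 fold change 0.63 to 2.69), Mx1, Lgals3bp and Mx2. None of these passed the adjusted threshold in the fit of all 15 libraries. In a fit of NT and Sham alone 7 members passed, beside 0.992% of all genes. The count at an unadjusted p under 0.05, 18 of 40, was 5 without NT replicate 3 (3.86% of all genes), 12 without NT replicate 2 (5.08%), 7 without Sham replicate 2 (3.97%), 7 without Sham replicate 3 (4.78%) and 33 in the fit of both groups alone (14.5%). The first Sham library was the lowest of its group in 29 of 40 members.

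In DPSC, 34 of 40 members lay above NT without overlap (16% of all genes), although only Mx2 and Lgals3bp were upregulated. The share was 38 of 40 in MSC (22.9% of all genes) and 35 of 40 in MSCEPO (16.5%). By the mean, 19 members were over 2-fold higher in DPSC, 30 in MSCEPO and 33 in MSC, beside 2.66%, 4.35% and 6.66% of all genes. The 4 comparisons share the NT libraries.

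**Figure D3:**
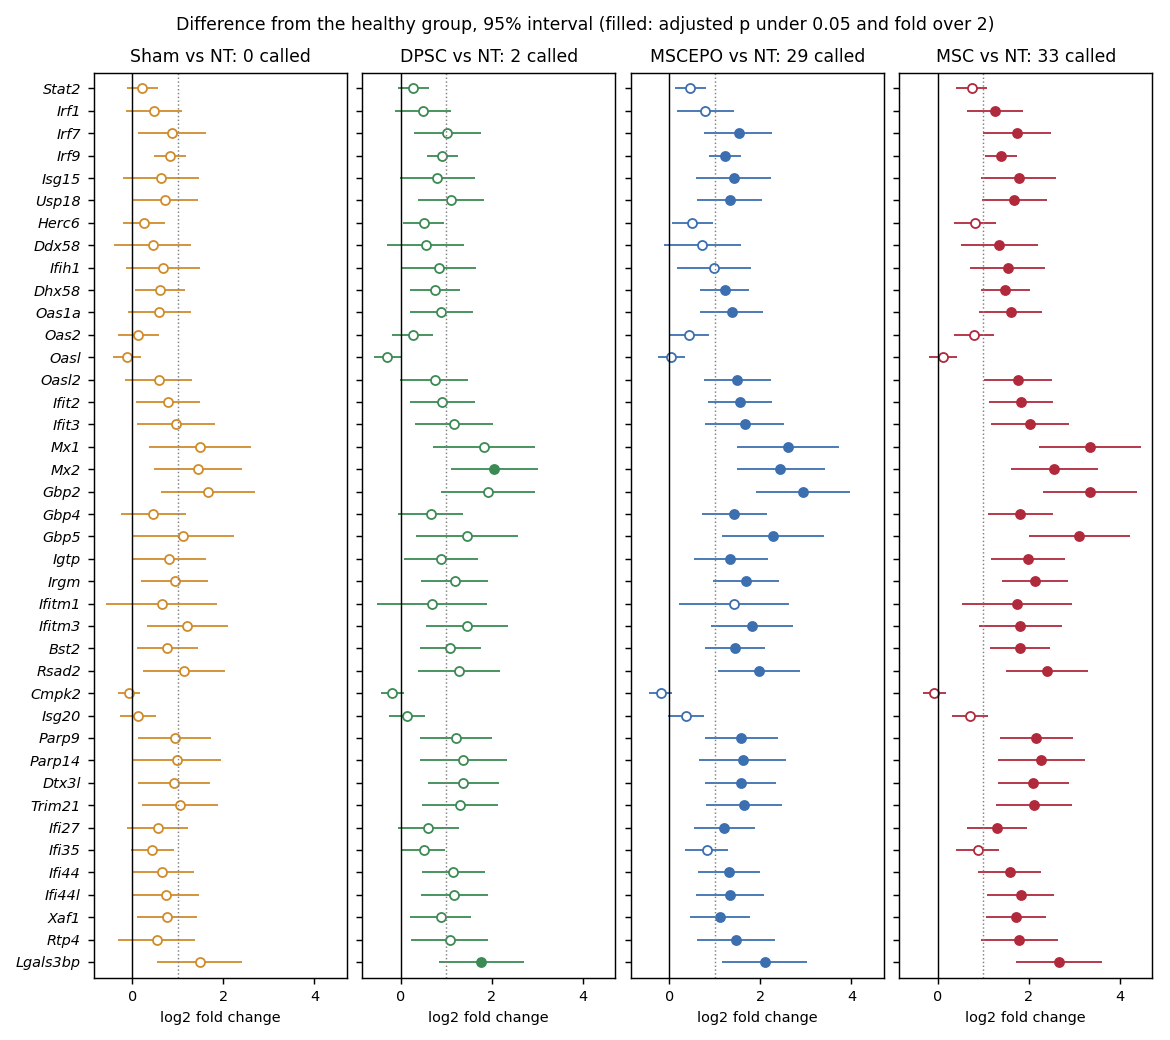
Log2 fold change against NT (horizontal axes) with the 95% interval for each of the 40 members (vertical axis) in the 4 comparisons, filled where the adjusted p was under 0.05 and the fold over 2, with a dotted line at 2-fold. The numbers of filled points are 0 in Sham, 2 in DPSC, 29 in MSCEPO and 33 in MSC.

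Relative to Sham, the question was whether the transplants added to the response. In MSC, 0 of 40 members were upregulated by limma, as were 0% of all tested genes. With DESeq2 at the same cutoffs, the study reported many over- and underexpressed genes in MSC and in MSCEPO against Sham. The 0% here holds for the limma fit of rlog values, and why the analyses differ was not tested. At an unadjusted p under 0.05 in limma, 35 of 40 members were higher (9.49% of all genes) and 0 lower (3.82%), and 39 of 40 had a higher mean. The median log2 fold change of the members was 1.05. Without overlap, 24 of 40 members were higher (13.1% of all genes) and 0 lower (11.3%). The lowest adjusted p of a member was 0.134, and the highest log2 fold change was that of Gbp5 (log2 fold change 2.00 ± 0.52, 3.99-fold, adjusted p = 0.134), followed by Mx1 (log2 fold change 1.85 ± 0.52, 3.61-fold, adjusted p = 0.147) and Gbp2 (log2 fold change 1.68 ± 0.48, 3.21-fold, adjusted p = 0.148). Without MSC replicate 3 the count became 22 of 40 (3.38% of all genes), and with libraries weighted by their agreement with the group it became 28 (2.96%). The weights of MSC replicates 1, 2 and 3 were 0.206, 5.28 and 0.855, so the weighted MSC mean rested mostly on replicate 2. The count stayed at 0 without both libraries that stood apart.

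In MSCEPO against Sham, 0 of 40 members were upregulated by limma (0% of all genes). At an unadjusted p under 0.05 in limma, 12 of 40 were higher (3.19% of all genes) and 0 lower (5.12%). Without overlap, 19 of 40 were higher (7.44%) and 0 lower (6.81%). The unadjusted count was 3 without Sham replicate 1, MSCEPO replicate 1 or MSCEPO replicate 2 (1.69%, 3.62% and 2.48% of all genes), 8 without Sham replicate 2 (1.93%) and 22 without MSCEPO replicate 3 (7.05%). Over the members the median log2 fold change was 0.64, and the widest difference was in Gbp2 (1.27, 95% interval 0.24 to 2.31). In DPSC against Sham, 0 of 40 were upregulated by limma (0% of all genes) and 0 downregulated (0.013%). At an unadjusted p under 0.05 in limma, 0 of 40 were higher (0.985% of all genes) and 0 lower (1.39%). The median log2 fold change there was 0.18, and the highest was 0.62 in Mx2 (95% interval -0.34 to 1.58). Only Usp18 was higher without overlap, 1 of 40 members beside 4.75% of all genes, and 0 members were lower without overlap (5.07%). Of 40 members 38 had a higher mean in DPSC than in Sham, but 19 without DPSC replicate 2 and 29 without Sham replicate 1. The intervals in this comparison still allow a 2-fold difference in many members, so these values do not show that DPSC and Sham retinas were alike.

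MSCEPO cells carried the erythropoietin construct and MSC cells did not. Per the study's methods, the MSCEPO cells were also transduced by lentivirus, carried a GFP marker and were sorted. Erythropoietin, vector, GFP and sorting therefore cannot be told apart in this comparison. The mean was higher in MSC in all 40 members, in Ifitm3 by less than the second decimal, but 0 of 40 were upregulated by limma (0% of all genes). In limma 0 of 40 were higher at an unadjusted p under 0.05 (2.83% of all genes), and 0 of 40 were higher without overlap (2.18%). Lower members also numbered 0, beside 0.966% and 1.91% of all genes. Shares of all genes below count genes higher in MSC. The median log2 fold change of MSC over MSCEPO was 0.36, beside 0.02 over all genes. The highest was Gbp5 at 0.83 (95% interval -0.29 to 1.95), with Mx1 at 0.73 (-0.39 to 1.86) and Parp14 at 0.66 (-0.30 to 1.61). Same-numbered libraries of these groups deviated together weakly (correlations 0.26, 0.16 and 0.28), a pairing that the labels do not give. Some pairs of other groups correlated more, such as MSCEPO and DPSC replicate 3 (0.65). With the replicate number as a block 0 of 40 were still upregulated, while 4 of 40 had an unadjusted p under 0.05 (3.68% of all genes), or 8 of 40 (3.3%) in a fit of both groups alone. The unadjusted count also depended on single libraries. It was 24 of 40 without MSC replicate 3 (7.32% of all genes), 4 without MSCEPO replicate 1 (11.2%) and 1 without MSCEPO replicate 3 (0.901%). With array weights, where replicate 2 held most of the weight in MSC, it was 17 (3.72%). Directions varied too, as 37 of 40 members were higher in MSC with quantile normalization, 27 without MSC replicate 2, 33 without MSC replicate 1, and 23 without MSC replicate 1 and MSCEPO replicate 3 together.

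The libraries of a group differed among themselves in which members led. MSC replicates 1 and 2 had nearly the same mean member level, 2.05 and 2.08 above NT, but not the same genes. All 5 GBP and IRG GTPases, all 3 membrane factors and Irf1 were higher in replicate 1, led by Ifitm1 (by 1.80), Gbp5 (1.25), Irf1 (1.09) and Gbp2 (1.06 on the log2 scale). Among them Irgm and Ifitm3 were nearly equal in both libraries, higher in replicate 1 by only 0.08 and 0.04. All members of the ISG15 system, the RNA sensors, the IFIT family and the Mx genes were higher in replicate 2, led by Rsad2 (by 1.54), Usp18 (0.96), Mx2 (0.92) and Ifit3 (0.84). In total 24 members were higher in replicate 2 and 16 in replicate 1, while 47% of all tested genes were higher in replicate 2. MSC replicate 3 was the lowest of its group in all 40 members. These are single libraries, so the differences between them carry no test.

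**Figure D4:**
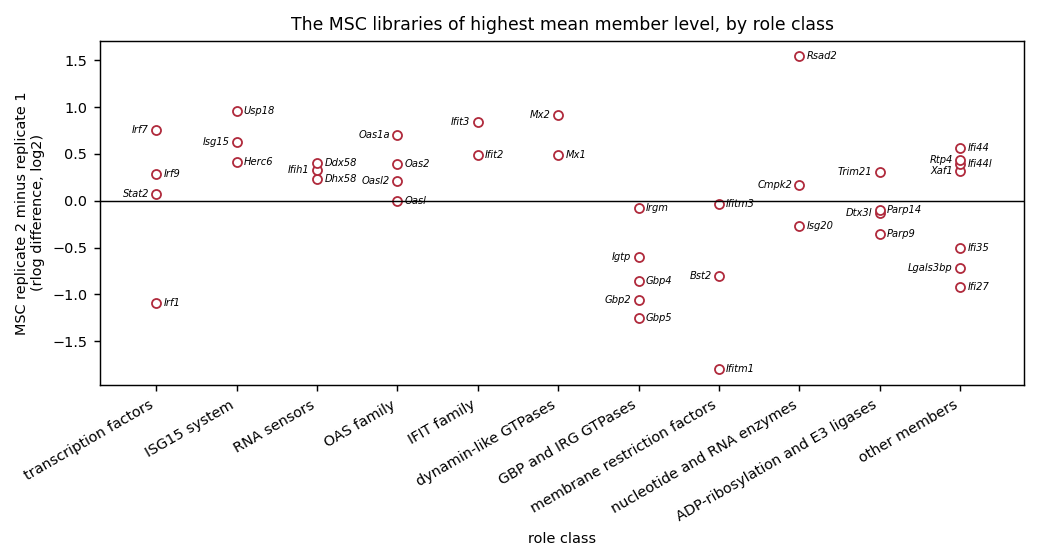
Difference between MSC replicate 2 and replicate 1 (vertical axis, log2) for each member, by role class (horizontal axis), where a circle above 0 is a gene higher in replicate 2. GBP, IRG and membrane genes lie below 0, Irgm and Ifitm3 only just, and the ISG15, sensor, IFIT and Mx genes lie above it.

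MSCEPO replicate 3 was lower than the mean of replicates 1 and 2 in 34 of 40 members, beside 52.6% of all tested genes. Ifih1 and Ddx58 were 0.13 and 0.27 below the NT mean there, and 1.53 and 1.22 above it in the mean of the other libraries. The IFIT family hardly differed, by -0.04 on average. In DPSC, replicate 2 was the highest in 35 of 40 members and replicate 3 the lowest in 34, and in NT replicate 3 was the lowest in 34.

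Genes upstream of the members were read from lists of the pathway. Of 10 interferon genes 6 were listed and 0 passed the floor, so none was tested. Ifng was at -0.58 in all NT, Sham, DPSC and MSCEPO libraries and at -0.39, -0.56 and -0.56 in MSC, values close to the bottom of the scale. Without read counts this does not show that interferons were absent. Of 9 receptor and kinase genes tested, 1 rose in MSC and in MSCEPO, and by limma 0 rose in Sham or DPSC, with 3 in each at an unadjusted p under 0.05. The gene was Il10rb, a shared chain of the type III receptor (log2 fold change in MSC 1.43 ± 0.32, adjusted p = 0.00976 in limma). Ifnlr1, the other type III receptor chain, Ifngr2, a type II receptor chain, and Ifnar1, a type I receptor chain, passed the adjusted threshold in MSC at under 2-fold (log2 fold changes 0.98, 0.71 and 0.58). So did the partner chains Ifngr1 (0.99) and Ifnar2 (0.78) and the kinase gene Jak2 (0.64).

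Of 17 sensing genes upstream of interferon, 8 rose in MSC, 3 in MSCEPO and by limma 0 in Sham or DPSC, with 4 and 5 at an unadjusted p under 0.05. In MSC the log2 fold change was 3.01 ± 0.50 for Irf8, a factor of myeloid cells (adjusted p = 0.00251), 1.74 ± 0.31 for Irf5, which acts below Toll-like receptors (adjusted p = 0.00367), 1.75 ± 0.35 for the nucleic acid sensor Zbp1 (adjusted p = 0.00566) and 2.27 ± 0.46 for the RNA receptor Tlr7 (adjusted p = 0.00625). Of 12 negative regulators, Socs3, a feedback inhibitor of JAK kinases, rose in all 4 comparisons with NT. Socs3 was at 5.98, 5.60 and 5.62 in NT, 7.60, 7.14 and 7.61 in Sham, 7.41, 7.88 and 7.63 in DPSC, 8.06, 8.81 and 7.39 in MSCEPO and 8.25, 8.12 and 7.99 in MSC. Its libraries were well apart from NT, and its log2 fold change was 1.72 in Sham (adjusted p = 0.0149 in limma), 1.91 in DPSC, 2.35 in MSCEPO and 2.39 in MSC. Socs3 was thus upregulated in Sham, where 0 of 40 members were. Ptpn6, a phosphatase of blood cells, rose in MSC and MSCEPO, Samhd1 rose in MSC, and Tnfaip3, an inhibitor of NF-κB signaling, fell in MSC (-1.03), MSCEPO (-1.61) and DPSC (-1.17).

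A further list held interferon-induced genes that are not members, and 35 of its 45 were tested. In MSC 24 of these rose, in MSCEPO 12, in DPSC 1 (Uba7, log2 fold change 1.09, adjusted p = 0.0444 in limma) and in Sham 0 by limma, with 7 at an unadjusted p under 0.05. Over the 35 genes the median log2 fold change was 0.49 in Sham, 0.58 in DPSC, 1.09 in MSCEPO and 1.48 in MSC. The lowest adjusted p in MSC was that of the chemokine Cxcl10, which rose by 2.60 on the log2 scale (adjusted p = 0.000839 in limma), followed by Uba7, Ube2l6 and Slfn13 (2.40). Cxcl9, a chemokine induced by type II interferon, is given because its values stood out once seen. Cxcl9 was at 4.67, 4.64 and 4.13 in NT, 4.74, 4.61 and 5.19 in Sham, 4.96, 6.07 and 4.52 in DPSC, 6.68, 6.27 and 5.87 in MSCEPO and 11.15, 6.57 and 5.95 in MSC. It was far higher in MSC replicate 1 than in any other library.

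Group means of the immune cell marker lists were highest in MSC, as were those of the members. Single libraries did not always follow. MSC replicates 1 and 2 had members at 2.05 and 2.08, and macrophage and microglia markers at 3.33 and 2.23. The 15 macrophage and microglia markers, taken as the mean level relative to NT, were at 0.78 to 1.54 in Sham, 0.81 to 2.04 in DPSC, 1.51 to 2.34 in MSCEPO and 1.79 to 3.33 in MSC, and 14 of 15 rose in MSC and in MSCEPO, 2 in DPSC and by limma 0 in Sham (13 at an unadjusted p under 0.05). The 13 T and NK cell markers over the floor, of 17 listed, lacked Cd8b, Gzma, Gzmb and Klrb1 and were at -0.03 to 0.05 in Sham, 0.02 to 0.71 in DPSC, 0.23 to 0.93 in MSCEPO and 0.65 to 2.73 in MSC, where 9 rose. By limma, 0 of these 13 rose in MSCEPO and 1 fell, with 1 higher and 2 lower at an unadjusted p under 0.05. The 5 B and plasma cell markers over the floor, without Pax5, were at -0.12 to -0.02 in Sham, -0.03 to 2.12 in DPSC, 0.18 to 2.28 in MSCEPO and 1.74 to 5.10 in MSC, where all 5 rose. The 4 dendritic cell markers over the floor were at -0.05 to 0.05 in Sham and 0.36 to 2.67 in MSC, where 1 rose. MSC replicate 1 was the highest library for each of these lists. In Sham the members were at 0.50, 0.81 and 0.88, and lymphocyte markers were near the NT level. In DPSC replicates 1, 2 and 3 the members were at 0.95, 1.33 and 0.55. T and NK markers there were at 0.13, 0.71 and 0.02, and B and plasma markers at -0.03, 2.12 and 0.15. Macrophage and microglia markers were above NT in the same libraries, at 1.34, 1.54 and 0.78 in Sham and 0.81, 2.04 and 1.05 in DPSC.

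**Figure D5:**
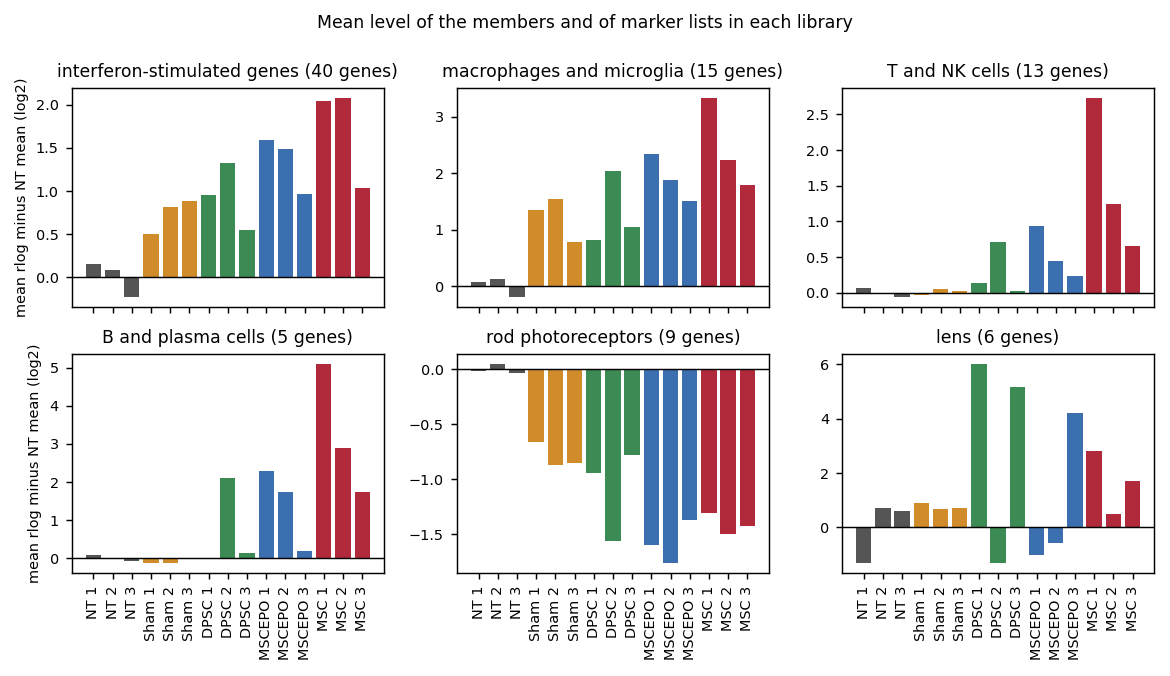
Mean rlog relative to the NT mean (vertical axes, log2) of the members and of 5 marker lists in each of the 15 libraries (horizontal axes). The members are above NT in all Sham libraries, where T, NK, B and plasma cell markers stay near 0, and MSC replicate 1 is the highest library of the 3 immune lists.

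The 9 rod photoreceptor markers went the opposite way, with mean levels relative to NT of -0.79 in Sham, -1.09 in DPSC, -1.58 in MSCEPO and -1.41 in MSC, and 3 of 9 fell in DPSC, 9 in MSCEPO and 8 in MSC (by limma 0 in Sham, with 8 at an unadjusted p under 0.05). The mean of the 7 Müller glia markers was at 0.62 to 0.83 and rested on the gliosis genes Gfap (log2 fold change 3.38 in Sham and 4.04 in MSC) and Vim (0.89 and 1.31), whereas Rlbp1 read -0.24 and -0.69 and Glul -0.10 and -0.23. In the group means endothelial markers were at 0.29 to 0.56 and pigment epithelium markers at -1.21 to -0.69. Lens markers, a sign of tissue from outside the retina, varied between libraries of a group, at 6.02 and 5.17 in DPSC replicates 1 and 3, at -1.31 in DPSC replicate 2 and at 4.23 in MSCEPO replicate 3. In DPSC and MSCEPO these lens-rich libraries had lower member levels than the others of the group (0.95 and 0.55 against 1.33, and 0.96 against 1.59 and 1.49). In MSC replicate 1 had the most lens signal (2.80) with members at 2.05, and replicate 3 had 1.71 with members at 1.04. The part of immune cell content, rod loss or lens tissue in the differences between groups was not tested.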

How the data were processed

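RNA sequencing of whole rat retinas was read from 15 libraries of 5 groups, taken from the sample labels. Per the study's methods and the submitters' processing notes, the authors ran Salmon 1.1.0 on the Rnor_6.0 transcripts, passed gene sums through tximport, and used DESeq2 for the transformation. The deposited values are the authors' rlog values on a log2 scale, corrected for library size. They were analysed as deposited, and 15 further columns in a table of the whole series held the same values (0 differed) and were not used. The tests had been planned for counts or log2 values, and the log2 branch applied. Columns of the authors' own marks or comparisons were not used.

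All 15 libraries were fitted with group means in limma 3.58.1 (R 4.3.3), with variances moderated by a trend on the mean, for genes with a mean rlog of at least 3.32. Each of 8 comparisons had its p-values adjusted over 15424 genes (Benjamini-Hochberg). A gene was upregulated or downregulated at an adjusted p under 0.05 and a fold over 2. Intervals are 95% intervals of the fit. The script was tested on simulated data. The members and gene lists were chosen with earlier results of these data known. They were described by role class, with 19 members and the up to 5 upregulated members of largest fold change per comparison given in every library, and up to 4 genes of lowest adjusted p per other list. A gene that the rule selects is not reported here. The other lists covered interferons, their receptors, sensing, negative regulators, other induced genes and cell type markers. Promoters were read from RefSeq (GRCr8), where 9 of 40 members were not matched by symbol. Alternatives were the call rule, the filter, the libraries fitted, scaling, the replicate number as a block, array weights and leaving out libraries. The methods state an average read number over libraries but none per library, and the values hold no counts, so no interval of a count is given. Replicate numbers were checked for pairing by the correlation of deviations from the group means. Only MSC and MSCEPO had every same-numbered pair over 0.1 (0.26, 0.16 and 0.28), a hint from the data and not from the labels. The labels give an age of post-natal week 12 while the design text speaks of 31-day-old rats, and the label was used.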

Additional observations from a re-analysis of the deposited data

How the results depend on the processing

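The median log2 fold change of the members moved by less than the spread between replicates in every comparison and alternative. That spread was the SD of the mean member level within groups. In MSC against MSCEPO and DPSC against Sham the medians (0.36 and 0.18) were smaller than it, so stability was not shown there. Members with a higher mean fell to 23 of 40 without MSC replicate 1 and MSCEPO replicate 3, and to 19 of 40 without DPSC replicate 2. Counts of upregulated members were less stable. The share of all tested genes upregulated in the same setting is given in parentheses. Sham against NT gave 0 (0.266%), but 1 by adjusted p alone (Irf9, 0.558%) and 7 in a fit of the 2 groups alone (0.992%). It gave 1 with the replicate block (0.331%), 2 with array weights (0.797%) and 2 without MSC replicate 1 and MSCEPO replicate 3 (0.648%). MSCEPO against NT gave 29 (2.33%), and 8 to 31 when 1 library was left out (1.1% to 4.23%). DPSC against NT gave 2 (0.525%), but 1 with no filter (0.348%), 1 with quantile normalization (0.389%), 9 with the replicate block (0.759%) and 16 with array weights (1.74%). It gave 10 without MSCEPO replicate 3 (0.901%) and 14 without MSC replicate 1 and MSCEPO replicate 3 (1.39%). When 1 of its own libraries was left out, it gave 0 to 6 (0.201% to 0.726%). MSC against Sham gave 0 (0%), but 28 with array weights (2.96%) and 0 to 22 when 1 library was left out (0% to 3.38%). MSCEPO against Sham gave 0 (0%), but 9 with array weights (1.43%). The cause was not tested. MSC against NT stayed within 28 to 38 throughout (3.35% to 11%). DPSC against Sham and MSC against MSCEPO stayed at 0 throughout (at most 0.0648% and 0.00648%). Array weights were estimated gene by gene, since the joint estimate did not converge. They ran from 0.0826 in MSCEPO replicate 3 to 5.28 in MSC replicate 2, so the counts with array weights rest unevenly on the libraries. The array weights, the block in a fit of MSC and MSCEPO alone and the settings that leave out MSCEPO replicate 3 from other comparisons or both libraries were chosen after the data had been seen.

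Some directions changed. With quantile normalization Isg20 read -0.03 in Sham and -0.07 in DPSC against NT, and Oasl -0.08 in MSC against NT, where the median of all genes shifted by -0.10. In MSCEPO against Sham, Ddx58 and Ifih1 read -0.05 each without MSCEPO replicate 1, and -0.05 to 0.78 and -0.05 to 0.87 over the libraries left out in turn. Without both libraries that stood apart, Gbp5 read -0.22 and Parp14 -0.08 in MSC against MSCEPO, where they had been among the widest differences at 0.83 and 0.66. Nothing in the labels pairs the samples by replicate number. Over all groups the deviations of same-numbered libraries from their group means correlated from -0.44 to 0.65, with 12 of 30 pairs over 0.1. Beyond the counts above, the replicate block left the counts of MSC and MSCEPO against NT at 33 and 29 (6.02% and 2.7% of all genes).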
